A study of Helianthus annuus with 142 samples.

Results

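The hybrid SF193_SF279 is a cross of the sunflower (Helianthus annuus) lines SF193 and SF279, and its leaf transcriptome was compared between droughted and well-watered plants. Its members are 6 of the 96 libraries of hybrids in the study, which also has 46 libraries of lines, and they were taken by their labels: 3 stressed plants, harvested at a fraction of transpirable soil water (FTSW) of 0.1, and 3 control plants, held at an FTSW of 1. The parents SF193 and SF279 have 3 stressed and 3 control plants each, under the same 2 water supplies. The study as a whole covered 24 genotypes, of which 8 are lines and 16 are hybrids between them, by RNA-seq of leaves. Per the labels' protocols, plants grew singly in pots of 15 L on a robotic platform that weighed them and gave control plants back the water they had lost. That protocol text also speaks of plants of another genotype, XRQ, as the ones kept for its study, so it may have been written for a different report. SF193 is the first-named and SF279 the second-named parent, and the labels do not say which of them bore the seed.

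FTSW is the part of the soil water a plant can draw on that is still left in the pot. As the soil dries, plants generally close their stomata, slow the growth of their leaves and change the expression of many genes, with abscisic acid as a main hormonal signal. A first-generation hybrid between inbred lines carries 1 allele of each parent at every gene where they differ, and the mean of the parents, called the mid-parent value, is the usual yardstick for its expression. A hybrid can lie at that mean, at the level of 1 parent, or beyond both.

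Total counts ranged from 5658446 to 12762593 in the 6 libraries of SF193_SF279 (median 9056579), from 4376169 to 12781768 in those of SF193 (median 8098233.5) and from 3836207 to 11462526 in those of SF279 (median 6898746). The TMM normalization factor, a scaling that corrects for the makeup of a library, averaged 1.05 in stressed and 0.924 in control plants of the hybrid, 1.03 and 0.942 in those of SF193, and 0.991 and 0.873 in those of SF279. Gene identifiers could not be tied to gene names, so neither leaf marker genes nor pathways could be looked up. Genes are therefore described in groups, and 4 are given by their identifiers. Each library came from 1 plant, so the p-values rest on how much plants of the same group varied. In whole leaves, fewer cells of a type and less RNA per cell cannot be told apart.

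Drought changed a large part of the measured leaf transcriptome of SF193_SF279. At a Benjamini-Hochberg adjusted p below 0.05 in the quasi-likelihood test of edgeR, 12488 of 36989 genes passed, or 33.8%. Of these, 5497 rose under stress (14.9% of the genes tested) and 6991 fell (18.9%). The falls were larger than the rises: the median log2 fold change, stress over control, was 1.15 among the genes that rose and -1.84 among those that fell. A change of more than 2-fold was reached by 3117 (56.7%) of those that rose and 5607 (80.2%) of those that fell, and more than 8-fold by 821 and 1550. In 5038 of the genes that rose and 6479 of those that fell, no stressed plant of the hybrid overlapped with any control plant, beside 8411 and 9079 of the 36989 genes tested, called or not. The median standard error of a log2 fold change was 0.33 over the 26477 genes that had a log2 CPM (counts scaled to a common library total) averaging at least 1. With scaling by library totals alone the balance turned, with 7201 rises and 5584 falls and a median of all genes of 0.11 in place of 0. With RLE scaling it did not, with 5767 rises and 6807 falls.

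The 2 lines that gave rise to the hybrid had fewer genes past the same test. SF193 had 1293 (3.5% of the genes tested), of which 619 rose (1.67%) and 674 fell (1.82%). SF279 had 4795 (13%), of which 2838 rose (7.67%) and 1957 fell (5.29%). With scaling by library totals alone, SF193 had 1070 rises and 345 falls, and SF279 had 4398 rises and 1113 falls. Among the 16 hybrids of the study, SF193_SF279 had the 6th most genes called, in a range of 6488 to 14664. Leaving out any 1 library of the hybrid gave 8837 to 12747 genes, so its own count did not rest on a single plant. The counts of the parents did. SF193 had 27 genes without its stressed plant 3, 2547 without its stressed plant 2, 861 without its stressed plant 1, 166 without its control plant 2 and 729 without its control plant 1. SF279 had 437 genes without its stressed plant 1, 8785 without its stressed plant 2 and 2916 without its control plant 3. A low count in a parent does not show that its genes did not respond.

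**Figure D1:**
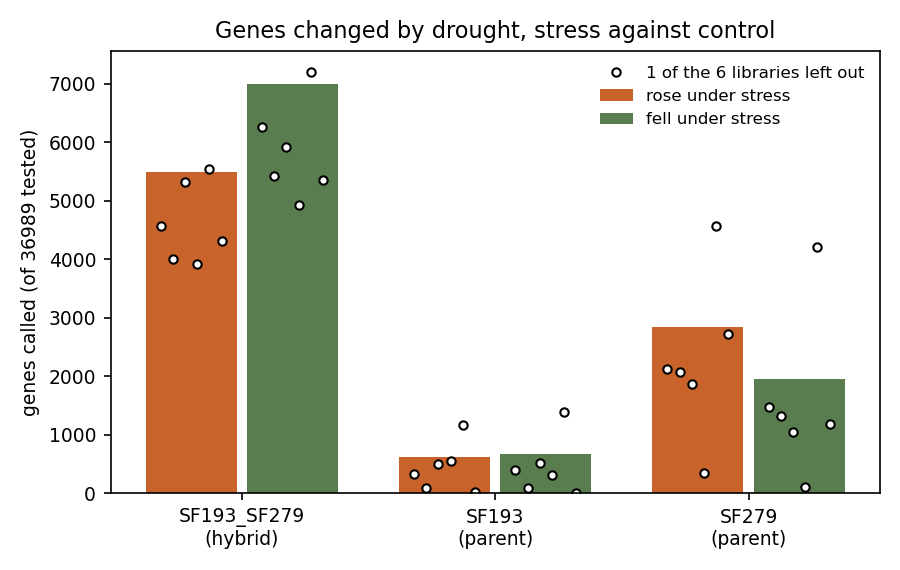
Number of genes (vertical axis, of 36989 tested) that rose or fell under stress at an adjusted p below 0.05 in SF193_SF279 and in its parents SF193 and SF279; bars show the result with all libraries and open points the result with 1 of the 6 libraries of that genotype left out. Rises and falls together, the points of the hybrid sum to between 8837 and 12747 genes, and those of SF193 to between 27 and 2547.

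The make-up of the leaf RNA shifted with these genes. Genes that rose in the hybrid held 34.5%, 23.7% and 33.7% of the counts in its 3 stressed plants, against 9.58%, 8.52% and 8.73% in its 3 control plants. Genes that fell held 11.5%, 19.0% and 13.8% in stressed plants, against 40.8%, 40.7% and 41.9% in control plants. These shares describe the genes that the test picked, and they show that stressed plant 2 lay nearest to the controls. In plants that took no part in picking the genes, the risen genes held 15.2% ± 5.66 in stressed and 8.81% ± 0.383 in control plants of SF193 (SD, n = 3 each). The same genes held 20.4% ± 10.1 in stressed and 8.54% ± 0.0115 in control plants of SF279 (SD, n = 3 each). The fallen genes held 31.2% ± 7.76 in stressed and 42.7% ± 1.93 in control plants of SF193, and 26.0% ± 11.8 in stressed and 44.1% ± 1.36 in control plants of SF279 (SD, n = 3 each).

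The share of genes that responded grew with expression level. Below a mean log2 CPM of 0, 5.13% of the genes rose and 8.69% fell. Between 4 and 6, 23.8% rose and 22.9% fell. Above 8, a class of 417 genes, 61 genes (14.6%) rose with a median log2 fold change of 2.43 and 183 (43.9%) fell with a median of -1.77. CPM is not divided by gene length, so a class mixes long and short genes, and a low level and a low power to call a gene cannot be told apart. The genes that rose had a median gene length of 4158 bp, those that fell 3482 bp, and those with no call 3183 bp. Their median expression differed as well, at a log2 CPM of 3.75, 3.33 and 2.10 in the same order.

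Risen and fallen genes were spread over all 17 chromosomes. The share that rose lay between 13.3% on chromosome 2 and 16.7% on chromosome 15, and the share that fell between 17.4% on chromosome 1 and 20.9% on chromosome 7. Of the 305 genes tested on sequences not placed on a chromosome, 6 rose and 30 fell. Of the organelle genes, 0 of 27 mitochondrial ones passed the edgeR test, and 1 of 8 plastid ones did, which rose. As a share of all counts, mitochondrial genes took 1.24% ± 0.0518 in stressed and 1.17% ± 0.113 in control plants of the hybrid (SD, n = 3 each, two-sided exact permutation p = 0.5). Plastid genes took 0.152% ± 0.0130 in stressed and 0.183% ± 0.0229 in control plants of the hybrid (SD, n = 3 each, exact permutation p = 0.1, adjusted 0.3 over 9 such tests). With 3 plants against 3, 0.1 is the smallest p the permutation test can give.

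Some genes were detected under only 1 water supply. In 83 genes, the stressed plants of the hybrid averaged at least 1 CPM and its 3 control plants had no count; the median level under stress was 3.93 CPM, and 17 genes reached 10 CPM or more. Of these, 81 passed the drought test, beside 33.8% of all genes tested. The definition uses the same 6 libraries as that test and so favours a pass. With counts summed over the plants of a group and set against a floor of 3 counts over the control group, these genes were at least 8.76-fold to at least 1631-fold higher under stress, with a median bound of 33.8-fold. By the same definition SF193 turned on 20 genes and SF279 86, and of the 83 genes of the hybrid 14 were shared with SF193, 31 with SF279 and 4 with both. In the other direction, 67 genes had no count in the 3 stressed plants of the hybrid and averaged at least 1 CPM in its controls. Of them, 61 passed the test, which this definition favours as well. Most of the 67 genes were weak, with a median control level of 1.87 CPM. They were at least 6.90-fold to at least 158-fold lower under stress. SF193 had 4 such genes and SF279 had 8; 1 of the 67 was shared with SF193 and 0 with SF279. A zero in these groups means only that the gene lay below what the depth could detect.

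HanXRQChr05g0129681 had the largest rise in the hybrid among 4450 candidate genes, which rose, reached a log2 CPM of 1 on average and did not overlap between water supplies. The authors' table places it on chromosome 5 at 2679636 to 2682035, plus strand, with a length of 2400 bp; its build was not named in what was used here. Stressed plants of SF193_SF279 had 332, 40.4 and 169 CPM, against 0, 0 and 0 CPM in control plants. Summed over plants it had 6327 counts under stress and 0 in control plants, and set against a floor of 3 counts over the control group, scaled for depth, it was at least 1631-fold higher under stress (adjusted p = 5.83e-07, edgeR). Summing gives more weight to the deeper libraries. All 3 stressed hybrid plants were high, and plant 2 was the lowest of them. Stressed plants of SF193 had 0.500, 0 and 10.9 CPM, against 0 CPM in each control plant, and stressed plants of SF279 had 74.5, 0.759 and 16.1 CPM, against 0, 0 and 0.200 CPM in control plants. The rise passed the test in SF279 (adjusted p = 0.000702) and missed it in SF193 (adjusted p = 0.0576). With the control groups of the hybrid and SF193 both at 0, the test of the hybrid response against the mean response of the parents could not pass whatever the difference. For this gene the hybrid was therefore not compared with that mean. Against SF279 alone, which had 2 counts in its control group, the difference in response did not pass (adjusted p = 0.847, edgeR). Over the other 21 genotypes, group means ranged from 0.387 to 227 CPM under stress and from 0 to 1.61 CPM in control plants.

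HanXRQChr04g0119131 was the largest of the 7 rises that also exceeded the mean response of the parents. It lies on chromosome 4 at 149907324 to 149914290, plus strand, with a length of 6967 bp. Its levels were 589, 98.4 and 479 CPM in stressed plants of the hybrid, against 19.4, 19.5 and 39.7 CPM in control plants. The groups did not overlap, and the log2 fold change was 3.90 ± 0.53 (SE, adjusted p = 3.33e-08, edgeR). In SF193, stressed plants had 60.7, 24.5 and 323 CPM, against 38.9, 8.20 and 17.7 CPM in control plants, a log2 fold change of 2.67 (adjusted p = 0.000674) that rested most on plant 3. In SF279, stressed plants had 6.74, 55.0 and 18.8 CPM, against 38.1, 54.5 and 35.2 CPM in control plants, a log2 fold change of -0.68 that did not pass (adjusted p = 0.406). The hybrid response minus the mean parental response was 2.91 ± 0.60 (SE, log2, adjusted p = 0.0168). Against single parents, the response differed from that of SF279 by 4.58 (adjusted p = 0.000134) and not detectably from that of SF193 (1.23, adjusted p = 0.4). Against the mean response of the other 15 hybrids it was higher by 3.21 (adjusted p = 0.00037), and in the other 21 genotypes the average log2 fold change was 0.59. The difference from the parents lost its call in 8 of 28 alternatives, with adjusted p between 7.37e-05 and 0.327.

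HanXRQChr10g0312621 had the largest fall among 5487 candidates. It lies on chromosome 10 at 222987888 to 222988514, minus strand, with a length of 627 bp. Stressed plants of SF193_SF279 had 0.0789, 0 and 0 CPM, which is 1 count in all, against 21.1, 119 and 3.95 CPM, or 1608 counts, in control plants. Per count and depth, the control plants were 2079 times the stressed plants, with a 95% counting interval of 373 to 82176. The control plants themselves were far apart, and the fitted log2 fold change was -9.97 ± 2.10 (SE, adjusted p = 9.49e-05, edgeR). Stressed plants of SF193 had 3.25, 56.5 and 0.235 CPM, against 152, 546 and 68.3 CPM in control plants (adjusted p = 0.0684). Stressed plants of SF279 had 0, 12.0 and 0.154 CPM, against 4.43, 457 and 11.8 CPM in control plants (adjusted p = 0.00405). Replicate 2 was the highest plant of the control group in each of the 3 genotypes, and the highest of the stress group in both parents. The responses of hybrid and parents did not differ past the threshold (adjusted p = 0.377).

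HanXRQChr07g0192881 was the largest of the 52 falls that also went beyond the mean response of the parents. It lies on chromosome 7 at 47604337 to 47604567, minus strand, with a length of 231 bp. The hybrid had 0 CPM in each of its 3 stressed plants, against 14.8, 16.8 and 11.0 CPM in control plants. With counts summed over plants and the same floor in the stress group, it was at least 158-fold lower under stress (adjusted p = 9.04e-11, edgeR). Stressed plants of SF193 had 2.75, 4.61 and 0.235 CPM, against 13.2, 5.92 and 6.27 CPM in control plants, a log2 fold change of -1.82 (adjusted p = 0.0621). Stressed plants of SF279 had 0.0977, 1.52 and 0.309 CPM, against 18.4, 13.04 and 18.5 CPM in control plants, a log2 fold change of -4.93 (adjusted p = 2.78e-07). The fitted difference from the mean parental response, -6.35 ± 1.53 (SE, log2, adjusted p = 0.0433), rests on a group at 0. It is no bound, and its SE is not reliable. It lost its call in 16 of 28 alternatives, with adjusted p between 0.0113 and 0.344. The gene fell in the average of the other 21 genotypes as well, with a log2 fold change of -5.96.

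**Figure D2:**
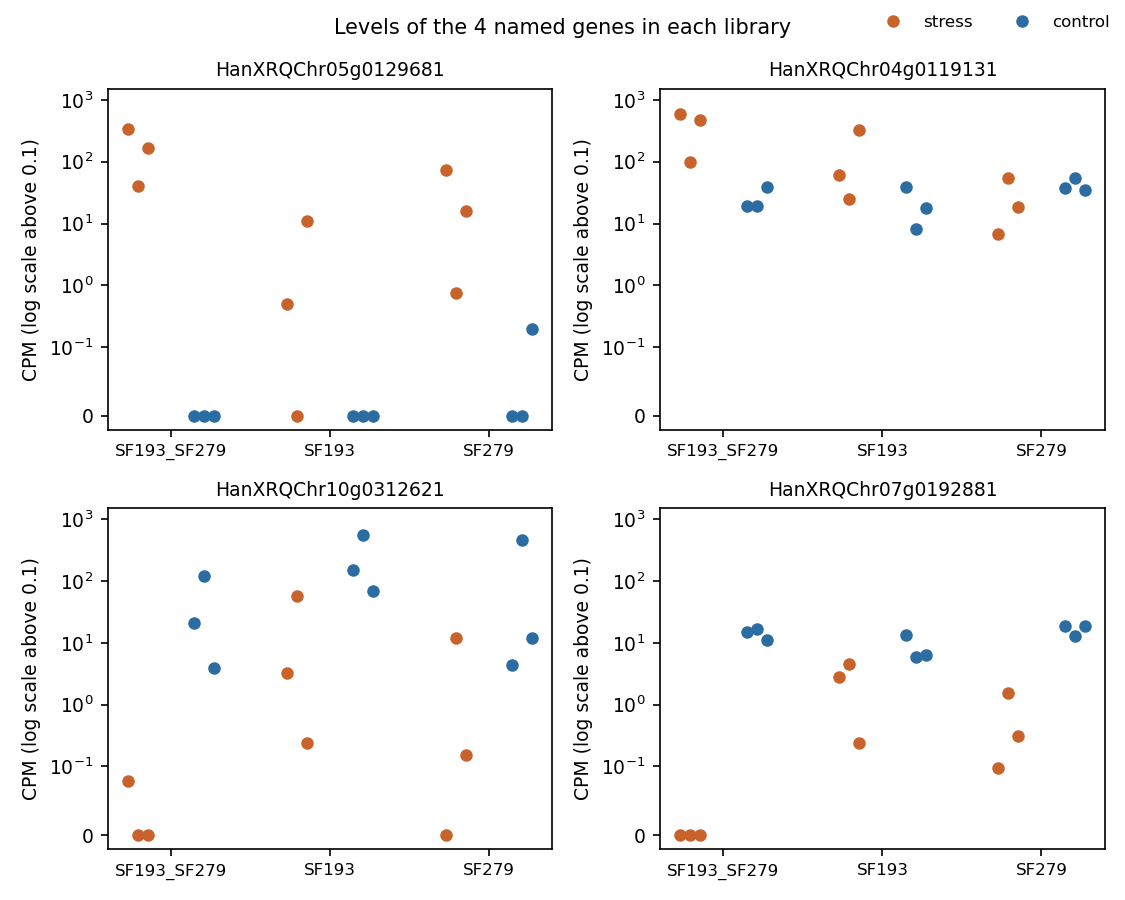
Expression in CPM (vertical axis, logarithmic above 0.1 and linear below) of 4 genes in each stressed and control plant of SF193_SF279, SF193 and SF279, with stressed plants left of control plants and points in replicate order. HanXRQChr05g0129681 lay at 0 in all 3 control plants of the hybrid and at 40.4 CPM or more in its stressed plants.

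Genes that changed in the hybrid mostly moved the same way in its parents, by less. The 5497 genes that rose in SF193_SF279, with a median log2 fold change of 1.15, had medians of 0.48 in SF193 and 0.66 in SF279. Of these genes, 89.5% had a positive fold change in SF193 and 91.8% in SF279, and 543 (9.88%) and 2054 (37.4%) passed the test there. The 6991 genes that fell, with a median of -1.84 in the hybrid, had medians of -0.58 in SF193 and -0.82 in SF279, and 532 (7.61%) and 1590 (22.7%) passed. Because these genes were picked for their change in the hybrid, a smaller median elsewhere follows in part from the picking. No gene called in the hybrid was called in the opposite direction in SF193, and 5 were in SF279: 2 that rose and 3 that fell in the hybrid. Read from the parents' side, the hybrid shared 87.7% of the 619 rises and 78.9% of the 674 falls of SF193, and 72.4% of the 2838 rises and 81.2% of the 1957 falls of SF279.

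A list taken from other plants does not pick on the hybrid itself. Genes were listed when they changed at least 2-fold, on average, over the 21 genotypes other than the hybrid and its parents, which gave 2628 genes that rose and 4831 that fell. These genotypes are 15 hybrids and 6 lines, and 6 of the hybrids have SF193 or SF279 as a parent, so the list is weighted towards responses of hybrids. They include 9 libraries that earlier results had put in doubt, and the list was not made again without those. In SF193_SF279, 1924 of the risen genes (73.2%) passed the test in the same direction, and the median log2 fold change of the whole list was 1.85. In SF193 the count was 354 (13.5%) with a median over the list of 0.89, and in SF279 it was 1218 (46.3%) with a median of 1.48. The average over the 21 genotypes had a median of 1.54 for this list. Of the fallen genes, 3797 (78.6%) passed in the hybrid with a median of -2.11, 399 (8.26%) in SF193 with a median of -0.89 and 1062 (22.0%) in SF279 with a median of -1.06, beside -1.63 in the 21 genotypes. The median over all genes tested was 0 in each genotype. Of all genes tested, 14.9% rose in the hybrid, 1.67% in SF193 and 7.67% in SF279, and 18.9%, 1.82% and 5.29% fell. Only 3 genes of the list that fell, and 0 of the list that rose, were called in the opposite direction in the hybrid. With a list from the 6 other lines alone, chosen after the values were seen, 1350 (57.4%) of 2353 risen genes passed in the hybrid, 289 (12.3%) in SF193 and 983 (41.8%) in SF279, with medians of 1.71, 0.80 and 1.54. Of its 2633 fallen genes, 2198 (83.5%) passed in the hybrid, 272 (10.3%) in SF193 and 767 (29.1%) in SF279, with medians of -2.68, -1.01 and -1.32. Of the genes called in SF193_SF279, 506 of the 5497 that rose and 708 of the 6991 that fell had no call in the average of the 21 genotypes. The opposite call was found in 9 and 10. Over all 36989 genes tested, 11893 rose and 12166 fell in that average with no minimum size, and the rest had no call.

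**Figure D3:**
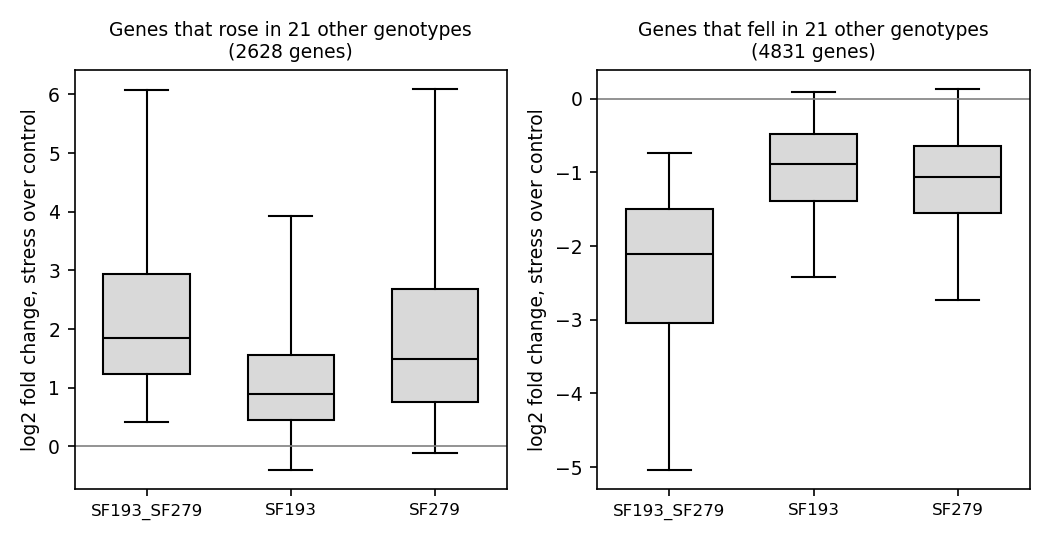
Log2 fold change, stress over control (vertical axis), in SF193_SF279, SF193 and SF279 of genes that rose (left) or fell (right) at least 2-fold on average in the 21 other genotypes; boxes show the middle of the distribution over genes with its median, and whiskers the 5th to 95th percentile. The hybrid has the largest medians, 1.85 and -2.11.

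The same 21 genotypes served to score each stressed plant. Each plant's log2 differences from the controls of its own genotype were regressed on the average change in the 21 genotypes, and the score is the slope, so that 1 stands for the average response. The stressed hybrid plants scored 1.33, 0.951 and 1.27, those of SF193 0.396, 0.189 and 0.988, and those of SF279 1.23, 0.217 and 0.738. The hybrid averaged 1.18 ± 0.203, against 0.525 ± 0.415 in SF193 and 0.729 ± 0.508 in SF279 (SD, n = 3 each). Neither difference was past the threshold (0.658 from SF193 and 0.454 from SF279, two-sided exact permutation p = 0.2 each, adjusted p = 0.2), and 0.1 is the smallest p that 3 plants against 3 allow. With the 6 other lines alone as the yardstick, the differences were 0.823 and 0.510 (exact permutation p = 0.1 and 0.3). Against the 21 genotypes the ranges overlapped: SF193 plant 3 scored above hybrid plant 2, as did SF279 plant 1. Stressed plant 2 had the lowest score in each of the 3 genotypes. Over all 24 genotypes, the lowest score belonged to plant 2 in 11, to plant 1 in 8 and to plant 3 in 5, which was counted after the values were seen. Whether the plants of a number shared a block or a harvest day is not stated for single libraries, and its part in the scores was not tested.

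**Figure D4:**
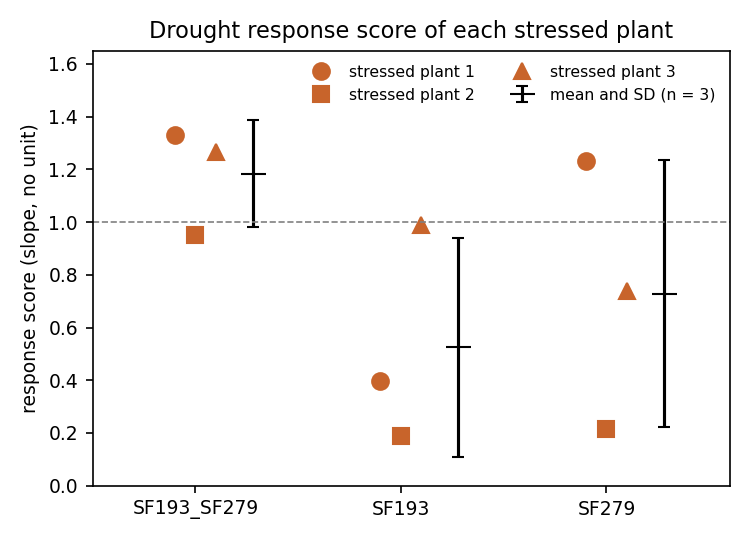
Drought response score (vertical axis, a slope without unit) of each stressed plant of SF193_SF279, SF193 and SF279, with the mean and SD of 3 plants beside the points; the dashed line at 1 marks the average response of 21 other genotypes. The hybrid plants lie between 0.951 and 1.33, and each parent has a plant close to 0.2.

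Tested gene by gene, few responses of the hybrid passed the test of a difference from those of its parents. The log2 response of SF193_SF279 minus the mean response of SF193 and SF279 passed in 67 genes (0.181%), of which 9 (0.0243%) were higher and 58 (0.157%) lower. At an unadjusted p below 0.05, 4564 genes differed, 1361 higher and 3203 lower. All 9 higher genes rose in the hybrid, at a median log2 fold change of 2.93, against 0.17 in SF193 and 0.35 in SF279. All 58 lower genes fell in the hybrid, with a median of -4.58, against -0.75 in SF193 and -1.19 in SF279. Picking genes by this difference favours large changes in the hybrid and small ones in the parents. Both sets of medians follow in part from it, as do the shared directions. In 5 of the 58 at least 1 of the 6 groups was at 0 in every plant, so their fitted values depend on the prior count. Against SF193 alone 69 genes passed (0.187%), 18 higher (0.0487%) and 51 lower (0.138%), and against SF279 alone 7 passed (0.0189%), 2 higher (0.00541%) and 5 lower (0.0135%). The median standard error of these differences was larger than that of a single response, at 0.41 for the mean of the parents, 0.47 for SF193 and 0.47 for SF279.

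These small counts depended on single plants. Without 1 stressed plant of the hybrid, the count against the mean parental response was 0 (plant 1), 697 (plant 2) or 1 (plant 3), and without 1 of its control plants it was 4, 16 or 13 (plants 1, 2 and 3). Without 1 stressed plant of SF193 it was 0, 8 or 392, and without its control plant 2 or 3 it was 14 or 44. Without 1 stressed plant of SF279 it was 630, 5 or 39, and without its control plant 2 it was 16. Where the count was 0, edgeR still gave 2753 genes (hybrid plant 1 left out) and 3990 genes (SF193 plant 1 left out) at an unadjusted p below 0.05. In each of the 2 larger counts reached by leaving out a plant of the hybrid or SF193, genes with a lower response made up the majority. They were 537 of 697 and 308 of 392. For the 630 genes found without stressed plant 1 of SF279, the direction is not given here. Against SF193 alone the count moved between 0 and 1417 and changed by more than 1.5 times with each of the 12 libraries. Against SF279 alone it moved between 2 and 68, the highest without stressed plant 2 of the hybrid and 60 without stressed plant 1 of SF279; it was 24 without stressed plant 2 of SF279, 4 without its control plant 1, 3 without its stressed plant 3, and 2 and 3 without stressed plants 1 and 3 of the hybrid.

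Compared with the mean response of the other 15 hybrids, 15 genes of SF193_SF279 differed (0.0406%), 6 higher (0.0162%) and 9 lower (0.0243%), and 1545 had an unadjusted p below 0.05. The 6 higher genes had a median log2 fold change of 2.07 in the hybrid, and the 9 lower ones -2.06. These medians follow in part from the picking as well. Without 1 plant of the hybrid the count was 4 (stressed plant 1), 5 (stressed plant 3), 6 (control plants 1 and 2) or 9 (control plant 3).

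The hybrid was then compared in level with the mean of its parents. In stressed plants 8584 genes differed from the log-scale mid-parent value (23.2%), 5262 above (14.2%) and 3322 below (8.98%). In control plants 2518 did (6.81%), 2361 above (6.38%) and 157 below (0.424%). The counts depended on how the mean was taken and tested. When the parents were averaged as CPM, the log ratio was tested by a Wald test, so scale and test changed together. Then 1771 genes lay above and 3259 below in stressed plants, and 17 above and 33 below in control plants. The majority thus turned from above to below in both, and the parts of scale and test were not told apart. In stressed plants, 1933 (22.5%) of the genes called on the log scale had a parent below 0.1 CPM, against 6664 of the 36989 genes tested. In control plants this held for 1559 (61.9%) of the genes called, against 6854 of those tested. The stress count on the log scale was 4260 without stressed plant 1 of the hybrid, 5080 without its stressed plant 3 and 5570 without stressed plant 2 of SF279.

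Levels beyond both parents do not depend on how the parents are averaged. In stressed plants, 695 genes were above both parents and 1326 below both, each parent tested on its own, together 5.46% of the genes tested. Those above exceeded the higher parent by a median of 1.18 on the log2 scale, and those below lay at a median of -1.60 from the lower parent. Of the genes above both, 593 were also among the genes that rose in the hybrid, beside 14.9% of all genes tested. Of those below both, 1236 were among those that fell, beside 18.9%. Both tests use the same stressed plants of the hybrid, so this overlap follows in part from the picking. In control plants, 54 genes were above both parents and 22 below both (0.205%). Leaving out 1 library moved the stress count between 606 and 3427: it was 606 and 834 without stressed plants 1 and 3 of the hybrid, 1245 and 1195 without stressed plants 1 and 2 of SF193, and 3427 and 625 without stressed plants 1 and 2 of SF279. The control count moved between 32 and 113; it was 46 and 38 without control plants 1 and 3 of the hybrid, 32 and 36 without control plants 1 and 2 of SF193, and 46 without control plant 2 of SF279. The list of drought genes from the 21 other genotypes showed the same split by water supply. Its risen genes lay at a median of 0.86 above the log-scale mid-parent value in stressed plants and 0.24 above it in control plants, and its fallen genes at -1.18 in stressed and -0.06 in control plants, beside 0.06 and 0.09 over all genes tested.

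Some genes were expressed in 1 parent alone, and their levels were read in the hybrid. Genes with at least 1 CPM in all 6 libraries of a parent and at most 0.1 CPM in all 6 of the other numbered 755 for SF193 and 323 for SF279; the hybrid took no part in this choice. In SF193_SF279, 716 of the 755 SF193 genes (94.8%) and 301 of the 323 SF279 genes (93.2%) were above 0.1 CPM in all 6 libraries, and 2 and 0 were at or below 0.1 CPM in all 6. Per library of the hybrid, 96.7% to 99.3% of the SF193 genes and 95.7% to 99.4% of the SF279 genes were above 0.1 CPM. In the 54 libraries of the 9 hybrids that have neither line as a parent, this held for 51.5% to 74.7% of the SF193 genes and 61.6% to 86.1% of the SF279 genes. By this measure the 6 libraries carried the genes of both labelled parents more often than any library of those 9 hybrids did.

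The level of these genes in the hybrid lay near the midpoint between the expressing parent and 0. Hybrid over SF193, the median ratio of CPM was 0.538 in stressed plants (interquartile range 0.384 to 0.715) and 0.579 in control plants (0.474 to 0.700). Hybrid over SF279, it was 0.537 in stressed plants (0.377 to 0.654) and 0.477 in control plants (0.379 to 0.569). The hybrid exceeded the expressing parent in 57 of the 755 SF193 genes under stress and 47 in control plants, and in 9 and 4 of the 323 SF279 genes. Their drought calls were few: 37 of the SF193 genes (4.90%) rose in the hybrid and 56 (7.42%) fell, and 13 of the SF279 genes (4.02%) rose and 13 (4.02%) fell, beside 14.9% and 18.9% of all genes tested. Their median log2 CPM was 1.53 and 1.21 over all libraries, in the class from 0 to 2, where 9.43% rose and 16.7% fell. That class held 410 of the 755 SF193 genes and 183 of the 323 SF279 genes. With all classes weighted as in each set, the shares were 11.9% risen and 17.0% fallen for SF193, and 11.0% and 16.4% for SF279. Requiring 1 CPM under both water supplies in a parent kept out genes that fall below it in either, and the part of this choice in the low shares was not tested.

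**Figure D5:**
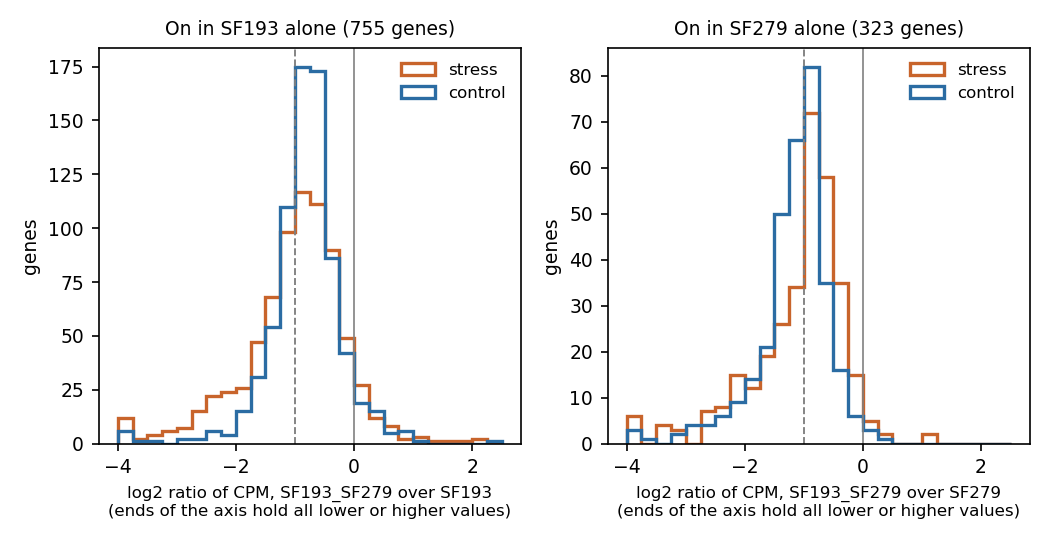
Number of genes (vertical axis) by the log2 ratio of CPM, hybrid over the expressing parent (horizontal axis), for genes expressed in SF193 alone (755 genes, left) and in SF279 alone (323 genes, right), in stressed and control plants; the dashed line at -1 is the midpoint between that parent and 0, and the solid line at 0 is the level of the parent. Both distributions peak close to the dashed line.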

How the data were processed

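The authors deposited a table of raw read counts per gene for 142 libraries, with gene positions and lengths named in its header. Their second table, filtered by them, holds CPM in the deposited file. It set only the genes and libraries of 1 alternative, run on the raw counts. Per the labels' protocols, oriented libraries were sequenced as paired reads of 100 bp. Versions 3.16.5 of edgeR and 3.3.3 of R stand in the submitters' processing notes without a role. The sources used here do not give the aligner, the counting tool or the build.

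Columns were tied to samples by genotype, water supply and replicate number. Of 58050 genes, 17 marked as ribosomal RNA were left out, and filterByExpr over the 48 groups kept 36989. Libraries were scaled by TMM. Group means were fitted over all 142 libraries with the quasi-likelihood method of edgeR 4.0.16 in R 4.3.3 (glmQLFit, robust), and contrasts were called at a Benjamini-Hochberg adjusted p of 0.05 over all genes. The SF342 control group has 1 library, assumed to vary like the others. Single values were tested by exact permutation. The hybrid against parents averaged as CPM was tested by a Wald test on the log ratio. A standard error (SE) of a log2 change is its size divided by the square root of its F statistic. It is approximate and not reliable where a group is at or near 0. CPM values per library use TMM-scaled totals, and log2 CPM adds a prior count of 2. Folds against 0 use a floor of 3 counts over the group. Counting intervals are exact at 95% and cover counting error only, since no molecular identifiers were used.

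Of the identifiers, 0 matched a RefSeq table of 83308 genes of the assembly HanXRQr2.0, so no symbols and no sequences are given. The rule for named genes took, among genes called in the hybrid with an average log2 CPM of 1 or more and no overlap between water supplies, the largest rise and fall, and the largest of each also past the test against the parents. The hybrid, the lists and the tests were chosen with earlier results of these data known.

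Same-numbered stressed and control plants deviated together in SF193 (r = 0.247, 0.271 and 0.300) and SF279 (0.132, 0.281 and 0.198), each above 0.1. In the hybrid the values were 0.012, 0.237 and 0.211. Plants of unlike number lay between -0.233 and 0.0822 in the hybrid, while stressed plant 3 and control plant 1 of SF279 reached 0.205. The main tests took the numbers as pairs in no genotype, and a replicate block was run as an alternative. Replicates of a group were distinct, with a chi-square per gene of at least 6.40. Data were simulated from the counts with 200 changed genes among 36319 and the same spread for all genes. On them, the drought test of the hybrid recovered 81% of 4-fold and 5% of 2-fold changes and called 1 unchanged gene. The test against the mean parental response recovered 49% and 5% and called 3. In the data 12488 genes passed the drought test, which makes its cutoff on the unadjusted p less strict, and log2 changes down to 0.26 passed. The recovered shares therefore do not give the power of that test in the data. Alternatives were RLE scaling, library totals, no filter, limma voom 3.58.1, and DESeq2 1.42.0 on the 18 libraries of the 3 genotypes. Others were edgeR on those 18 libraries alone, thinning to the lowest library total, and the authors' genes and libraries. A replicate block and the omission of libraries were run as well.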

Additional observations from a re-analysis of the deposited data

Results flagged for a closer look

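The drought response of SF193_SF279 differed from that of other genotypes by a test of the difference itself in a small number of genes. Against the mean response of SF193 and SF279 it differed in 67 genes, against SF193 in 69, against SF279 in 7, and against the mean of the other 15 hybrids in 15, all by the edgeR test of the interaction. Of the named genes, HanXRQChr04g0119131 responded more strongly than the mean of the parents, by 2.91 on the log2 scale. HanXRQChr07g0192881 fell further than that mean, with a fitted difference of -6.35 that rests on 3 stressed plants at 0. As the counts per omitted plant show, these differences depended on which plants were included, and no explanation for them was tested.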

How the results depend on the processing

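The drought response of the hybrid kept its count within 1.5 times in all 12 alternatives and all 6 omissions of a library (8837 to 12747), and the 4 named genes kept their drought calls in all 18 alternatives each. With a replicate block over all libraries it had 12452 genes, SF193 1302, SF279 4808, and the response differences 68 (mean of the parents), 87 (SF193), 7 (SF279) and 14 (other hybrids); the block changed no other count by over 1.5 times. Within the 6 libraries of a genotype alone, the block gave 181 genes in SF193 and 0 in SF279 (edgeR; 4889 at an unadjusted p below 0.05), against 0 in each without it (4960 and 3805 unadjusted). With only the 18 libraries of the 3 genotypes, SF193 had 6 genes and SF279 1506, and the differences from the mean of the parents, from SF193 and from SF279 fell to 0, 0 and 0 (edgeR; 3655, 4030 and 2933 unadjusted). Genes beyond both parents then numbered 1207 in stressed and 30 in control plants. With those libraries thinned to the lowest total among them, SF193 had 820 genes, the differences numbered 0 from the mean of the parents, 0 from SF193 (edgeR; 4167 and 4755 unadjusted) and 6 from the other hybrids, the control mid-parent count was 1513 and that beyond both parents 40. DESeq2 was run only on the 18 libraries of the 3 genotypes, where edgeR gave 1506 genes for SF279 and 0, 0 and 0 for the differences. It gave 3007 genes for SF279 and 293, 256 and 84 for the 3 differences from the parents. With limma voom, 35 genes differed from the mean of the parents, 20 from SF279 and 54 from the other hybrids. Without the low-count filter, 16 differed from the mean of the parents and 37 from SF193. Without 9 libraries of other genotypes that earlier results had put in doubt, the 4 differences were 231, 315, 32 and 24, and 119 control genes lay beyond both parents. All 9 belong to the 21 genotypes behind the gene lists and scores, which were not run without them. Averaging the parents as CPM, with its Wald test, gave 5030 stressed and 50 control mid-parent calls. At 2 CPM in place of 1, 213 genes were on in SF279 alone, and with no minimum size 4982 risen and 6273 fallen genes of the 21-genotype list were called in the hybrid; the list from the 6 other lines gave 2198 fallen genes. Leaving out 1 library gave 27 to 2547 genes in SF193, 437 to 8785 in SF279, 0 to 697, 0 to 1417, 2 to 68 and 4 to 22 for the 4 differences, 4260 to 11059 and 1876 to 2363 for stressed and control mid-parent calls, and 606 to 3427 and 32 to 113 beyond both parents. The cause of these shifts was not tested. Settings with fewer libraries have fewer degrees of freedom, and the part of this was not tested either. The majority turned from falls to rises in the hybrid's response with library totals alone (7201 against 5584), and from above to below the mid-parent value with parents averaged as CPM (1771 against 3259 in stressed and 17 against 33 in control plants). Genes beyond both parents, the within-genotype blocks of SF193 and SF279, the omissions of stressed plants in the scores, and the list and scores from the 6 other lines were added after seeing the data. DESeq2 was not run against the other hybrids. Depth limits the genes detected under 1 water supply, since a group floor of 3 counts equals about 0.1 CPM.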

Other observations

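Ribosomal RNA genes took 0.0000920% of the counts in stressed plants of SF193_SF279 and 0.00200% in control plants (n = 3 each, two-sided exact permutation p = 0.1, adjusted p = 0.3), where 1 control plant held 0.00557%. In SF193 the mitochondrial share was 1.17% ± 0.0648 in stressed and 0.979% ± 0.0133 in control plants (SD, n = 3 each, exact permutation p = 0.1, adjusted p = 0.3). In SF279 the plastid share was 0.203% ± 0.0609 in stressed and 0.279% ± 0.0189 in control plants (SD, n = 3 each, exact permutation p = 0.2, adjusted p = 0.3). Of the genes tested, 916 had no count in any of the 6 libraries of the hybrid.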
